A study of Homo sapiens with 6 samples.

Results

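The genes described here encode 9 actin bundlers and crosslinkers other than fascin, namely PLS1, PLS3, LCP1, ACTN1, ACTN4, FLNA, VIL1, EPS8 and ESPN, which were taken by gene symbol from a table of 30230 genes. RNA sequencing of polyadenylated RNA gave 3 libraries of negative control cells (NC) and 3 libraries of cells with FSCN1 silenced (siFSCN1), all of A549, an established human lung adenocarcinoma cell line. NC cells carried a control plasmid according to the sample labels and a scrambled siRNA according to the study's methods, and siFSCN1 cells were given a single siRNA chosen from several, so that an effect of that siRNA apart from the loss of FSCN1 cannot be told apart from the loss itself. The comparison asks whether transcripts of other bundlers rise when FSCN1 is lost. The study calls the libraries of a group biological replicates. Neither it nor the labels say that they came from separate cultures, so p-values measure the spread between these libraries, of which a part may be technical.

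Fascin packs parallel actin filaments into the stiff bundles of filopodia and invasive protrusions. Other proteins tie filaments together in other geometries. The plastins join filaments closely through paired actin-binding domains in 1 polypeptide, the alpha-actinins form antiparallel dimers that space filaments more widely in stress fibers and adhesions, and filamin A holds filaments at wide angles in a flexible network. Villin, EPS8 and espin act mainly in microvilli and related protrusions, where they bundle filaments together with plastins, and villin and EPS8 also bind filament ends.

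After silencing, transcripts of VIL1, EPS8, PLS3 and FLNA rose, those of ACTN4 and ACTN1 fell slightly, PLS1 and LCP1 did not pass the test, and ESPN was too low to be tested. The rises ran from 1.22-fold for FLNA to 1.81-fold for VIL1. The 4 rises held under every scaling of the libraries that was tried, whereas the falls of both alpha-actinins depended on the scaling.

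The silenced gene was checked first. FSCN1 stood at 45.0, 47.2 and 46.0 FPKM (fragments scaled to exonic length and library depth, as deposited) in NC replicates 1 to 3, against 4.46, 2.82 and 3.19 FPKM in siFSCN1 replicates 1 to 3. Every siFSCN1 library lay far below every NC library, and siFSCN1 replicate 1 kept the most FSCN1. The log2 fold change of siFSCN1 against NC was -3.89 ± 0.094 (SE) by the quasi-likelihood test of edgeR (adjusted p 8.1e-16). Library totals ran from 27967301 to 36560919 counts and 17076 genes were tested. TMM, the scaling used in the test, gave factors of 0.933 to 0.942 in NC and 1.05 to 1.08 in siFSCN1, so that a gene with equal FPKM in both groups had a negative log2 fold change. All 6 epithelial markers were above 1 FPKM, with a summed level of 3117 to 3498 FPKM in NC and 1759 to 2115 FPKM in siFSCN1. The keratins KRT7, KRT8, KRT18 and KRT19 were lower in siFSCN1 and made up nearly all of this sum, whereas the adhesion genes CDH1 (9.23 to 26.4 FPKM, log2 fold change 1.35, adjusted p 8.03e-15) and EPCAM (3.15 to 4.30 FPKM, 0.29, adjusted p 0.0227) rose. The alveolar type 2 markers NKX2-1 and SFTPC were at or near 0. Of 6 leukocyte markers only CD14 passed 1 FPKM, with PTPRC, CD3E and CD53 at or near 0, and their summed level was 3.50 to 3.76 FPKM in NC and 4.60 to 5.47 FPKM in siFSCN1. None of 7 fibroblast markers (0.48 to 0.56 FPKM summed in NC and 0.37 to 0.68 in siFSCN1) or 3 endothelial markers (at most 0.04 FPKM summed) passed 1 FPKM. In these bulk samples, fewer cells of a type and less RNA per cell cannot be told apart.

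Of the crosslinkers that build networks and stress fibers, FLNA rose. Both alpha-actinins were called lower with TMM, but not under every scaling. FLNA (filamin A, GRCh38 chrX:154348524-154374634, minus strand) measured 76.75, 80.89 and 77.45 FPKM in the NC libraries and 107.4, 107.45 and 107.21 FPKM in the siFSCN1 libraries. The siFSCN1 values were nearly equal and all lay above the NC values. The fold change was 1.22, with a 95% interval of 1.16 to 1.29, and the log2 fold change of 0.29 ± 0.037 (SE) had an adjusted p of 1.5e-06 in edgeR. The deposited FPKM gave a ratio of 1.37 between the group means, 78.4 ± 2.22 and 107.4 ± 0.127 FPKM (SD, n = 3).

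ACTN4 (alpha-actinin-4, chr19:38647649-38731589, plus strand), which crosslinks filaments in stress fibers and at the leading edge, was the most abundant of the 9 genes per length in both groups. It measured 166.02, 173.53 and 172.01 FPKM in NC and 164.7, 160.22 and 158.74 FPKM in siFSCN1. The groups did not overlap, although the highest siFSCN1 library came close to the lowest NC library. The log2 fold change was -0.25 ± 0.036 (SE), with an adjusted p of 6.85e-06 in edgeR. Without a composition factor, using library totals only, the log2 fold change was -0.06 and the adjusted p 0.112. ACTN4 shares 868 exonic bases with CAPN12 on the opposite strand, which measured 3.56 ± 0.0651 FPKM in NC and 3.64 ± 0.728 FPKM in siFSCN1 (SD, n = 3).

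ACTN1 (alpha-actinin-1, chr14:68874128-68979440, minus strand), the other non-muscle alpha-actinin, measured 18.18, 18.61 and 17.54 FPKM in NC and 18.06, 17.93 and 17.92 FPKM in siFSCN1. All 3 siFSCN1 values lay inside the NC range. With TMM the log2 fold change was -0.18 ± 0.037 (SE) and the adjusted p 0.000365 in edgeR. With library totals the direction turned, to a log2 fold change of 0.0098 with an adjusted p of 0.825. The group means in FPKM, 18.1 ± 0.538 and 18.0 ± 0.0781 (SD, n = 3), differed by less than the spread of the NC libraries.

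The 250 bases before the annotated start of FLNA, PLS3, ACTN4 and ACTN1 are shown because these are the abundant members. FLNA and PLS3 rose, and ACTN4 and ACTN1 were called lower with TMM. Sequences are from RefSeq (GRCh38.p14), written 5′ to 3′ on the strand of the gene, and the capitals mark a match to the CArG box bound by serum response factor, a regulator of many actin genes. The table of promoters held entries for 6 of the 9 members, and VIL1, EPS8 and ESPN had no entry. The lines are FLNA at chrX:154374635-154374884 (minus strand), PLS3 at chrX:115560924-115561173 (plus strand), ACTN4 at chr19:38647399-38647648 (plus strand) and ACTN1 at chr14:68979303-68979552 (minus strand).
FLNA: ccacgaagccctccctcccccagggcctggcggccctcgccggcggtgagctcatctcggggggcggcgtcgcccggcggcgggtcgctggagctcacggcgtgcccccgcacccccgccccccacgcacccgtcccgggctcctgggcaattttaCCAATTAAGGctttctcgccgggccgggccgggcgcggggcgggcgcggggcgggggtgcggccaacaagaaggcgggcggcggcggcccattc
PLS3: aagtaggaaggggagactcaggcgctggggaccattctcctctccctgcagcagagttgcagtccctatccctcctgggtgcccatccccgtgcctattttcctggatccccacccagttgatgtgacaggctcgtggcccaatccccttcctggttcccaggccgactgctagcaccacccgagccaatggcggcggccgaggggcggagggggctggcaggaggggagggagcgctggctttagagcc
ACTN4: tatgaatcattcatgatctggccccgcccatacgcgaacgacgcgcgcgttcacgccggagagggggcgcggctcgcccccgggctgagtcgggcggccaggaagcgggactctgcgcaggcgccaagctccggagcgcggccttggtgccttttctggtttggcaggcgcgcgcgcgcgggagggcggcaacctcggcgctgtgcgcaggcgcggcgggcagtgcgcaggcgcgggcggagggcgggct
ACTN1: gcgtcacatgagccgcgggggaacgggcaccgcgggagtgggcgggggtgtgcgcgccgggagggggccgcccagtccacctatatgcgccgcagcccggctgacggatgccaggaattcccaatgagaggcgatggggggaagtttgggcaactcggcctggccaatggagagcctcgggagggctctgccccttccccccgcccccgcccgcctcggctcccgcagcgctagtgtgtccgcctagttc
Both strands were searched for 4 motifs. The CArG box occurred in 1.16% of 35116 promoter entries of this length and matched in FLNA, 94 to 85 bases before the start, and in none of the other 5 members with an entry. The GC box GGGCGG, found in 42.6% of entries, occurred 5 times each in FLNA and ACTN4, 4 times in ACTN1 and 1 time each in PLS3, PLS1 and LCP1. The AP-1 core TGANTCA (6.57% of entries) matched only in ACTN4 and the TEAD core GGAATG (11.9% of entries) only in PLS1. These matches are a description of the letters in the window and not of factor binding.

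**Figure D1:**
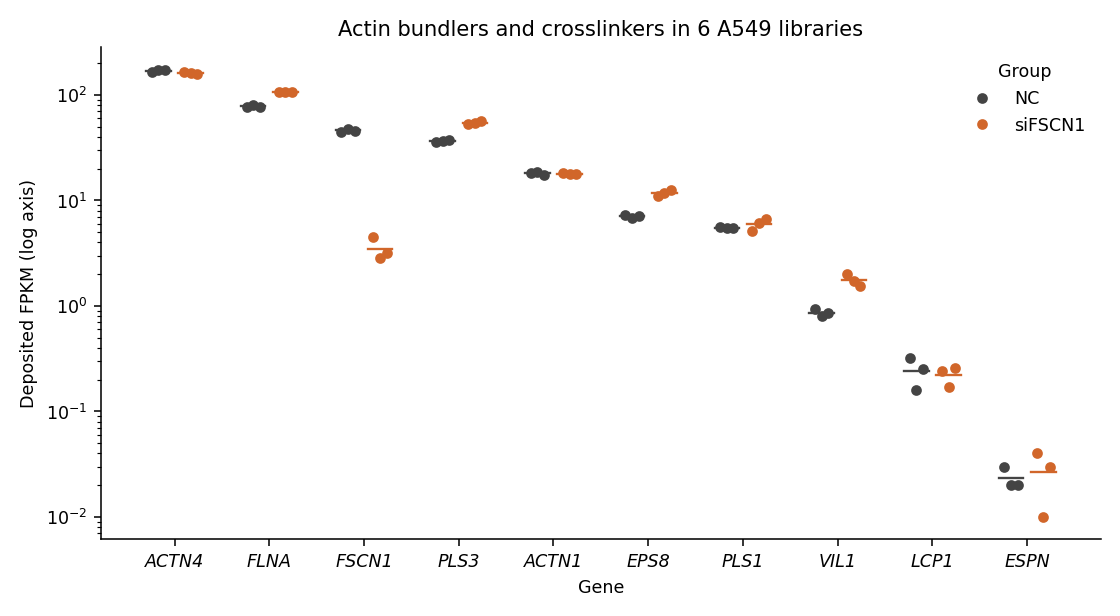
Deposited FPKM on a log axis for the 9 members and FSCN1 in each of the 6 libraries, with NC and siFSCN1 libraries as separate points. FLNA, PLS3, EPS8 and VIL1 lie higher in all siFSCN1 libraries, ACTN4 lies slightly lower, and ESPN stays at or below 0.04 FPKM.

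Among the plastins, PLS3 rose and its paralogs PLS1 and LCP1 did not pass the test. PLS3 (T-plastin, chrX:115561174-115650861, plus strand), the plastin of most solid tissues, measured 36.22, 36.7 and 37.09 FPKM in NC and 52.78, 54.06 and 57.03 FPKM in siFSCN1. The lowest siFSCN1 library lay above the highest NC library by many times the spread of the NC libraries. The fold change was 1.33 (95% interval 1.25 to 1.41), and the log2 fold change of 0.41 ± 0.040 (SE) had an adjusted p of 4.23e-08 in edgeR. Its antisense neighbor PLS3-AS1 shares 0 exonic bases with it and went from 0.223 ± 0.0321 to 0.533 ± 0.0723 FPKM (SD, n = 3), with a log2 fold change of 1.07 and an adjusted p of 0.00217.

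PLS1 (I-plastin, chr3:142596393-142713664, plus strand), the plastin of intestinal microvilli, measured 5.63, 5.52 and 5.45 FPKM in NC and 5.09, 6.12 and 6.72 FPKM in siFSCN1. The siFSCN1 libraries spread on both sides of the NC libraries, with a coefficient of variation of 13.8% against 1.64% in NC. The log2 fold change was -0.05 ± 0.077 (SE), with an adjusted p of 0.559, and the 95% interval of the fold change ran from 0.861 to 1.08. The mean FPKM was higher in siFSCN1, 5.98 ± 0.824 against 5.53 ± 0.0907 (SD, n = 3), so the sign depended on the scaling, and it also turned without siFSCN1 replicate 1.

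LCP1 (L-plastin, chr13:46125920-46211871, minus strand), the plastin of leukocytes, was low in every library. It measured 0.32, 0.16 and 0.25 FPKM in NC and 0.24, 0.17 and 0.26 FPKM in siFSCN1, from 27 to 60 counts per library. The groups overlapped. The log2 fold change was -0.31 ± 0.26 (SE), with an adjusted p of 0.296 in edgeR, and at this depth the 95% interval of the fold change was 0.553 to 1.18. LCP1 shares 965 exonic bases with CPB2-AS1 on the opposite strand, which stood at 0.01 FPKM in NC and 0.0167 FPKM in siFSCN1.

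Of the bundlers of microvilli and similar protrusions, EPS8 and VIL1 rose. EPS8 (chr12:15620134-15882329, minus strand), which caps barbed ends and bundles filaments, measured 7.34, 6.84 and 7.14 FPKM in NC and 11.12, 11.68 and 12.58 FPKM in siFSCN1. The groups were well apart. The fold change was 1.48 (95% interval 1.37 to 1.59), and the log2 fold change of 0.56 ± 0.052 (SE) had an adjusted p of 2.17e-08 in edgeR.

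VIL1 (villin, chr2:218419121-218453295, plus strand), a bundler and severing protein of epithelial brush borders, measured 0.94, 0.8 and 0.85 FPKM in NC and 2.01, 1.71 and 1.54 FPKM in siFSCN1. These values rested on 183 to 249 counts in NC and 406 to 526 counts in siFSCN1, and the groups did not overlap. The fold change was 1.81 (95% interval 1.53 to 2.14), and the log2 fold change of 0.85 ± 0.115 (SE) had an adjusted p of 2.98e-06 in edgeR. VIL1 shares 3045 exonic bases with USP37 on the opposite strand, and whether the counting used strand was not stated. USP37 itself measured 1.03 ± 0.108 FPKM in NC and 0.86 ± 0.0346 FPKM in siFSCN1 (SD, n = 3), with a log2 fold change of -0.43 and an adjusted p of 0.0014. The part of USP37 reads in the VIL1 values was not tested.

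ESPN (espin, chr1:6424776-6461367, plus strand), which bundles filaments in microvilli and stereocilia, was detected with 8, 5 and 6 counts in NC and 10, 3 and 8 counts in siFSCN1. The filter on low counts removed it. An exact two-sided permutation test of its counts per library total gave p = 0.9, where 3 against 3 libraries cannot give a p under 0.1. A change of ESPN was not detectable at this depth.

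Some members have annotated pseudogenes or share positions with other annotated genes. Pseudogenes named after ACTN4 (ACTN4P1 and ACTN4P2), PLS1 (PLS1P1) and ESPN (ESPNP) could take or lose uniquely mapped reads. How alike their sequences are to the members was not measured. On the opposite strand PLS1 shares 410 and FLNA 40 exonic bases with long non-coding RNA genes and ESPN shares 383 with TNFRSF25, and ACTN1 shares 300 on its own strand with the pseudogene HMGN1P3. The part of these neighbors in the values was not tested.

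Within siFSCN1, replicate 1, the library with the most remaining FSCN1, had the lowest PLS3, EPS8 and PLS1 and the highest ACTN4, ACTN1 and VIL1. Replicate 2, which had the least FSCN1, lay in the middle for each of these genes. In FLNA and LCP1, replicate 1 lay in the middle. ESPN, with 10, 3 and 8 counts, was highest in replicate 1 and lowest in replicate 2. All of these are orders among 3 libraries and carry no test.

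Of the 8 members tested, 4 were higher and 2 lower at an adjusted p under 0.05, where 35.1% of all tested genes were higher and 33.2% lower. None changed at least 2-fold, against 16.5% of all tested genes in either direction. The median log2 fold change of the 8 was 0.12, beside 0.031 over all tested genes. On deposited FPKM, 4 of the 9 members lay higher in siFSCN1 without overlap (46.4% of the tested genes did). Only 1, ACTN4, lay lower without overlap (24.3% of the tested genes did). With so few members, these counts were close to the shares among the tested genes.

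**Figure D2:**
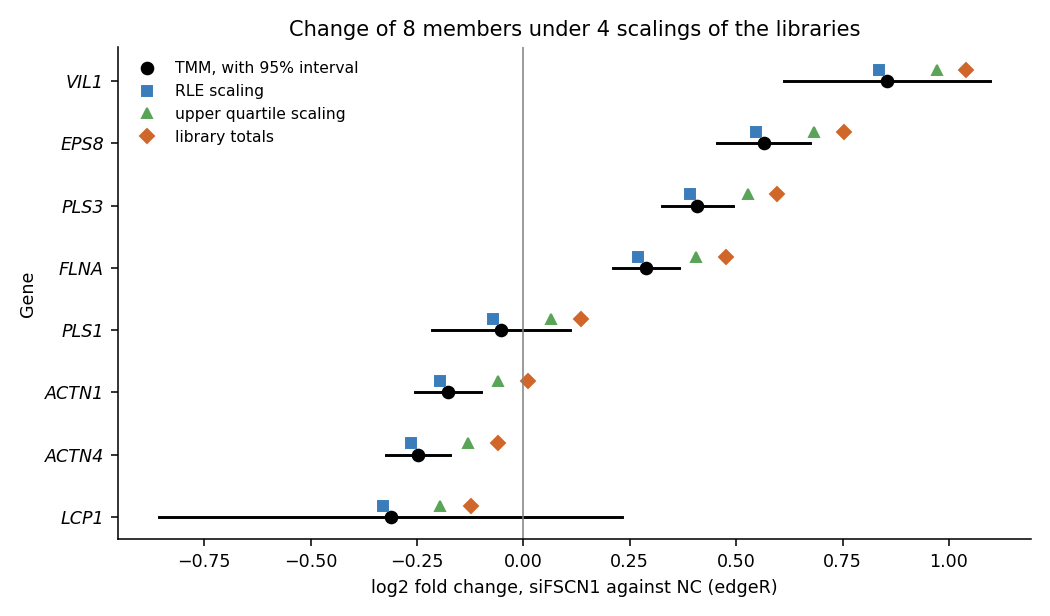
Log2 fold change of siFSCN1 against NC for 8 members under TMM scaling (points with 95% intervals) and under RLE, upper quartile and library-total scaling (other markers). VIL1, EPS8, PLS3 and FLNA stay above 0 under all 4 scalings, and ACTN1 reaches 0.0098 with library totals.

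Every scaling shifted the 9 genes together with all others. Over all genes tested, the median of the log2 fold changes was 0.031 with TMM, 0.013 with RLE, 0.15 with upper quartile and 0.22 with library totals. Across the 15 alternatives the log2 fold change of PLS3 ran from 0.365 to 0.597, that of FLNA from 0.27 to 0.48, that of EPS8 from 0.50 to 0.75 and that of VIL1 from 0.56 to 1.04, with every adjusted p under the threshold. All 4 highest values came with library totals, the scaling that raised the median of all genes most.

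The size of the members' rise can be set beside the loss of FSCN1 only per length. On deposited FPKM the 9 members summed to 311.4, 323.1 and 317.8 FPKM in NC and to 361.4, 359.4 and 362.0 FPKM in siFSCN1. The siFSCN1 sums all lay higher, by 43.5 FPKM in the mean, while FSCN1 lost 42.6 FPKM. After division by the TMM factors the same sums were 338.7 ± 4.57 in NC and 338.3 ± 4.24 in siFSCN1 (SD, n = 3), a difference of -0.378, while the difference for FSCN1 was -45.88 FPKM. The near match of gain and loss was therefore present on the deposited scale and absent on the TMM scale. The typical tested gene also lay higher on the deposited scale. The median log2 fold change over all tested genes was 0.17 on log2(FPKM + 0.1) and 0.081 on log2(FPKM + 1). The members' deposited sum had a ratio of 1.137 between siFSCN1 and NC. No test was run on the sums.

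FLNA carried most of the gain, 29.0 of the deposited FPKM, followed by PLS3 with 17.95 and EPS8 with 4.69, whereas ACTN4 fell by 9.3 FPKM. Without FLNA the sum differed by 14.5 FPKM between siFSCN1 and NC on the deposited scale and by -17.39 FPKM on the TMM scale. In the sum of members and FSCN1, the share of FLNA went from 21.6% to 29.5% and that of PLS3 from 10.1% to 15.0%, while FSCN1 fell from 12.7% to 0.957% and ACTN4 from 46.9% to 44.2%. These shares do not depend on the scaling of the libraries. Of all counts in a library, the 9 members took 0.279% to 0.290% in NC and 0.324% to 0.337% in siFSCN1. Unlike the shares within the sum, this one is scaled by library totals. With that scaling the median log2 fold change over all tested genes was 0.22.

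**Figure D3:**
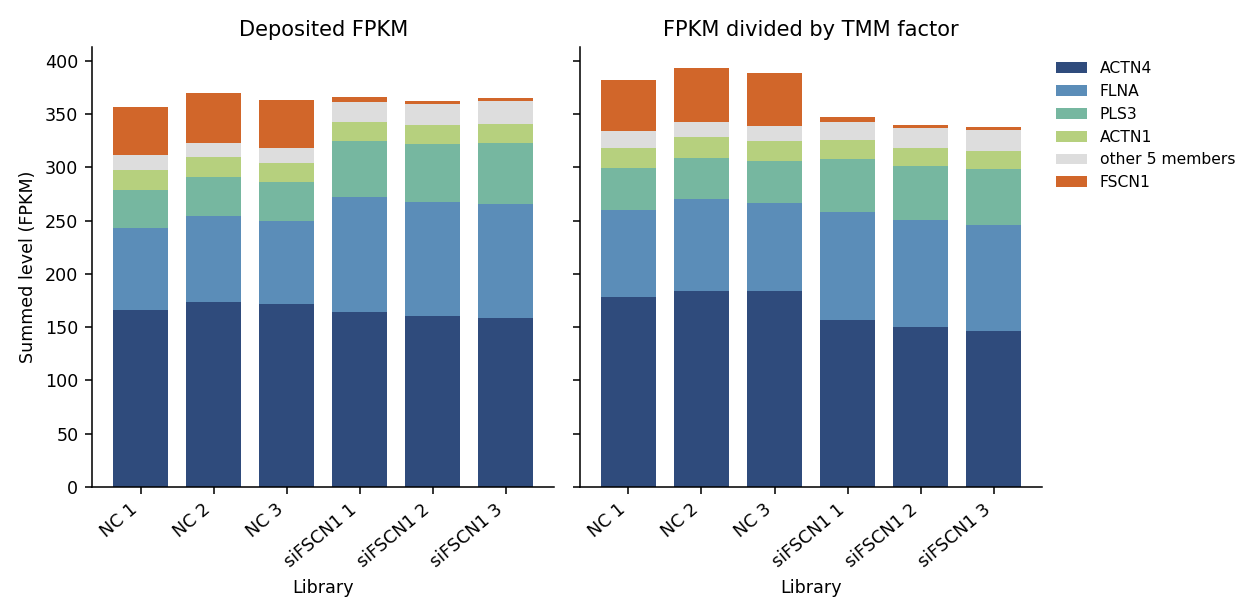
Stacked FPKM of ACTN4, FLNA, PLS3, ACTN1, the other 5 members and FSCN1 in each library, as deposited (left) and divided by the library's TMM factor (right). The whole stack averages 363.5 FPKM in NC and 364.4 FPKM in siFSCN1 on the left, and 387.8 and 341.6 FPKM on the right.

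By deposited FPKM the order in NC was ACTN4, FLNA, FSCN1, PLS3, ACTN1, EPS8, PLS1, VIL1, LCP1 and ESPN, and no neighbors overlapped over the 3 libraries. In siFSCN1 the 9 members kept this order and FSCN1 dropped below PLS1. The deposited values divide by the length of all annotated exons, which for ACTN1 is 14320 bases against 3722 bases in its MANE Select transcript (the reference transcript of the gene), and for EPS8 8540 against 3901 bases. Rescaled to the MANE Select length, ACTN1 in NC rose to 69.7 ± 2.07 FPKM (SD, n = 3), above FSCN1 at 61.2 ± 1.504 and PLS3 at 45.6 ± 0.542. In siFSCN1 ACTN1 at 69.1 ± 0.300 and PLS3 at 68.0 ± 2.71 FPKM then overlapped. The rescaling keeps the reads of all exons and divides by the MANE Select length. It can thus overstate the level of a gene with many other exonic bases. The order of ACTN1 among the members thus depended on which length was used, an alternative chosen after seeing the data.

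Ratios between members do not depend on the scaling of libraries. Per MANE Select length, FLNA over ACTN4 was 0.481, 0.485 and 0.468 in NC and 0.678, 0.698 and 0.702 in siFSCN1, without overlap. PLS3 over PLS1 was 5.60, 5.79 and 5.93 in NC and 9.03, 7.69 and 7.39 in siFSCN1, again without overlap and with a wider spread after silencing. ACTN4 over ACTN1 was 2.91, 2.98 and 3.13 in NC and 2.91, 2.85 and 2.83 in siFSCN1, and here the siFSCN1 values lay at or below the lowest NC value by a small margin. PLS3 stood at 0.746 ± 0.0157 of FSCN1 in NC and at 15.3 ± 3.67 times FSCN1 in siFSCN1 (SD, n = 3), mostly through the loss of FSCN1.

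**Figure D4:**
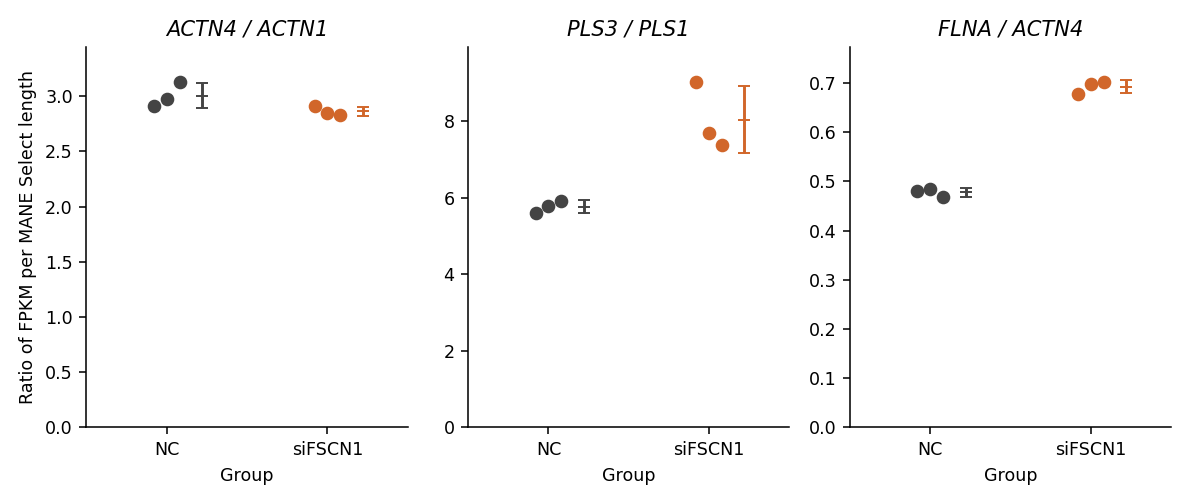
Ratios of FPKM per MANE Select length within each library for ACTN4 over ACTN1, PLS3 over PLS1 and FLNA over ACTN4, with 1 point per library and the mean ± SD of each group beside the points. FLNA over ACTN4 averages 0.478 in NC and 0.693 in siFSCN1, and PLS3 over PLS1 averages 5.77 and 8.04.

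The genes whose profile over the 6 libraries was most like that of VIL1 in log2 CPM were PACS1, PPP1R14B and STK25, with Pearson's r of 0.998, 0.998 and 0.997 among 5779 genes compared. For ACTN4 they were RPF2, MOB4 and NKIRAS2, with r of 0.9995, 0.9994 and 0.9994, and 553 genes reached 0.99 or more. With 6 libraries in 2 groups, such values mostly reflect the difference between groups that these genes share.

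Related genes were read from 6 lists. Of the paralogs of the members, 11 of 15 were tested, 2 were higher and 3 lower, with a median log2 fold change of -0.075 (over all tested genes, 35.1% were higher, 33.2% were lower and the median was 0.031). With library totals 5 paralogs were higher and 2 lower. CAPG, a gelsolin relative that caps barbed ends, fell from 30.8 ± 0.818 to 9.26 ± 1.43 FPKM (log2 fold change -1.90, adjusted p 1.07e-13), and FLII, another gelsolin relative, fell from 23.9 to 19.8 FPKM. EPS8L3, a relative of EPS8, had a log2 fold change of -0.35 with an adjusted p of 0.0387, a call that was lost in 9 of 15 alternatives. SVIL (supervillin), which links actin and myosin to membranes, rose from 1.00 ± 0.0321 to 2.29 ± 0.185 FPKM (1.02, 1.25e-10). The other higher paralog, AVIL (advillin), was named after its values were seen and went from 0.0433 to 0.413 FPKM.

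In the fascin family, FSCN1 fell and FSCN2, a fascin of the retina named after its values were seen, measured 0.23, 0.24 and 0.26 FPKM in NC and 0.67, 0.73 and 0.72 FPKM in siFSCN1 (log2 fold change 1.37, adjusted p 7.71e-05). FSCN2 thus stayed below 1 FPKM, and FSCN3 was not tested.

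Of 45 other bundlers and crosslinkers, 39 were tested. Of these, 18 were higher and 12 lower, against 35.1% and 33.2% of all tested genes, and their median log2 fold change was 0.07. Among genes of at least 1 FPKM in one group, the largest falls were those of LASP1, a LIM and SH3 domain protein of focal adhesions (75.2 ± 1.43 to 20.9 ± 2.08 FPKM, -2.01, adjusted p 9.77e-16), SWAP70 (3.84 to 1.41 FPKM, -1.61) and TAGLN2, transgelin-2 (303 ± 7.34 to 133 ± 13.4 FPKM, -1.36, adjusted p 9.95e-14). By the same limit, the largest rises were those of MARCKS, a membrane-bound filament crosslinker (9.60 ± 0.314 to 27.4 ± 0.624 FPKM, 1.35, adjusted p 3.5e-14), TRIOBP (2.89 to 6.80 FPKM, 1.06) and LIMA1 (1.52 to 3.21 FPKM, 0.91). The fall of TAGLN2 alone, from 303 to 133 FPKM, was larger in FPKM than the summed gain of the 9 members.

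Of 20 proteins of filopodia and microvilli, 18 were tested. Of these, 7 were higher and 6 lower, against 35.1% and 33.2% of all tested genes, and their median was -0.06. With library totals 8 were higher and 3 lower. The formin DIAPH1, which elongates unbranched filaments, fell from 11.2 to 5.21 FPKM (-1.27, adjusted p 7.2e-13), while the formin FMNL1 rose from 2.82 to 6.73 FPKM (1.09, adjusted p 2.02e-11). MSN (moesin) had a log2 fold change of -0.42 and DIAPH3 of -0.39, and USH1C (harmonin), a scaffold of microvillus tips, and MYO10, a motor of filopodial tips, rose by 0.43 and 0.38 on the log2 scale.

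Of 25 partners of alpha-actinin and filamin, 20 were tested. Of these, 5 were higher and 8 lower, against 35.1% and 33.2% of all tested genes, and their median was -0.04. The balance depended on the scaling, with 9 higher and 5 lower with library totals and on both FPKM scales, and 9 higher and 7 lower with upper quartile scaling. CSRP2, PXN (paxillin) and TRIP6 fell, with log2 fold changes of -1.13, -0.89 and -0.85. LPP rose from 0.683 ± 0.0702 to 2.74 ± 0.223 FPKM (1.83, adjusted p 1.71e-13), and TLN1 (talin-1) and ITGB1 (integrin beta-1), which binds filamin A, rose by 0.55 and 0.33. The other higher genes, FERMT2 (kindlin-2, 4.45 to 6.07 FPKM) and FILIP1 (0.0967 to 0.333 FPKM), were named after their values were seen. Of 6 partners of EPS8, 5 were tested. Of these, 4 were higher and none was lower, against 35.1% and 33.2% of all tested genes. Their median was 0.29, beside 0.031 over all tested genes. On this list SOS1 (0.53), ABI2 (0.25) and ABI1 (0.18) were higher. The other higher gene, MYO15A, was named after its values were seen and stayed at or below 0.02 FPKM. With the stricter filter and on both FPKM scales the count was 3.

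**Figure D5:**
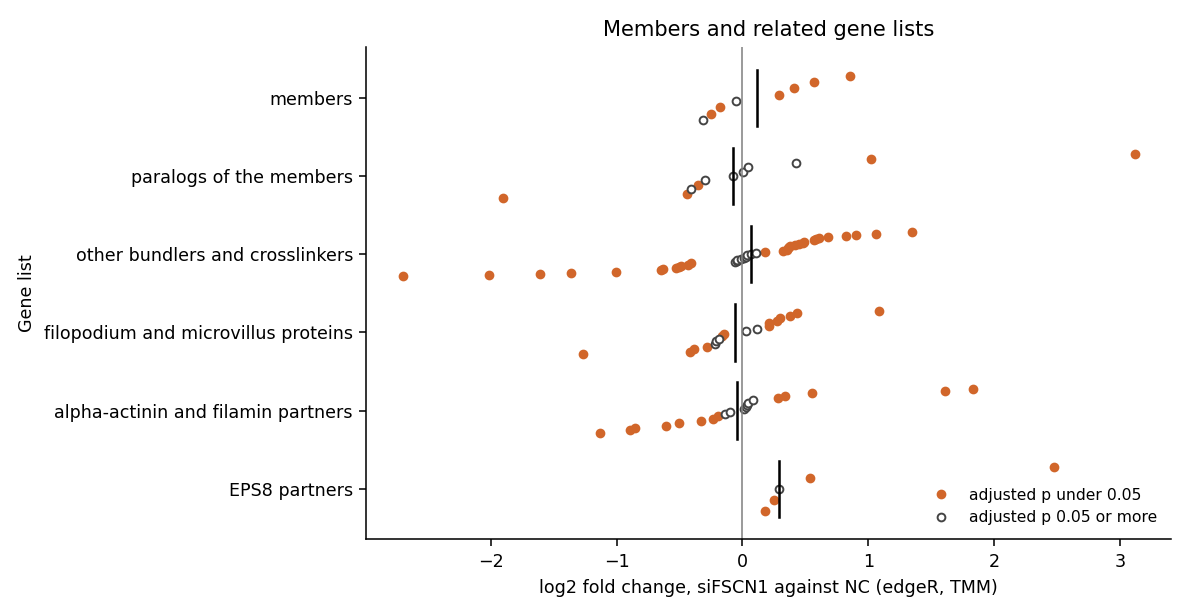
Log2 fold change of siFSCN1 against NC (edgeR, TMM) for each tested gene of the members and of the lists other than the fascin family, with 1 point per gene, filled where the adjusted p was under 0.05, and a vertical bar at each median. The 8 tested members lie between -0.31 and 0.85. The other bundlers and crosslinkers span a wider range, but over 39 tested genes, and a range widens with the number of genes.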

How the data were processed

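Polyadenylated RNA of 6 A549 libraries was sequenced, and the titles of the samples gave the groups and replicate numbers. The authors trimmed reads with FASTX, aligned them to GRCh38 (HISAT2 in the study's methods, TopHat2 in the submitters' processing notes) and kept uniquely mapped reads. The authors deposited raw counts for 30230 genes and FPKM for 29899 genes. The library kit was strand-specific, while the program used for counting, whether it used strand, and the annotation behind it are not given in the sources used here. FPKM matched counts divided by the union of exons in GENCODE v44, within 0.519% over the genes checked. Of 30211 distinct identifiers, 30128 were found in that release, from which positions were taken.

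Counts were filtered with filterByExpr and scaled by TMM, and all 6 libraries entered a quasi-likelihood test without covariates in edgeR 4.0.16 under R 4.3.3. Benjamini-Hochberg adjustment ran over 17076 genes, and genes were called at an adjusted p under 0.05. The study used DESeq2, here an alternative (DESeq2 1.42.0). The other alternatives were RLE, upper quartile and library-total scaling, no filter, a stricter filter (1 CPM in 3 libraries and a mean of 10 counts), the replicate number as a block, each library left out, and limma 3.58.1 on log2(FPKM + 0.1) and log2(FPKM + 1). The fit was tested on simulated data in which few genes changed. That test did not cover scaling where most genes are called, as in these libraries. No libraries agreed within sampling noise (within groups, chi-square over its degrees of freedom was 3.06 to 8.15). Replicate numbers gave no sign of pairing. Deviations from the group means correlated at -0.035, 0.04 and -0.084 for same-numbered libraries and at -0.08 to 0.106 for the others. With means of 3 libraries and noise from low counts, such values cannot exclude pairing.

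The members and lists were chosen with earlier results of these data known. Named genes are the members, FSCN1, the 3 largest rises and falls per list with an adjusted p under 0.05 and a mean of at least 1 FPKM in one group, and the 3 genes most like the member of largest rise and of largest fall. Promoter sequences came from RefSeq, GRCh38.p14. Figures and sums used Python 3.11.15.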

Additional observations from a re-analysis of the deposited data

How the results depend on the processing

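Of 120 refits of the 8 tested members, 113 kept their side of the threshold, and both alpha-actinins lost calls. PLS1, which was not called, changed sign in 5 of 15, without a call in any of them. ACTN1 had a log2 fold change of -0.0595 with upper quartile scaling, 0.0098 with library totals, -0.0107 on log2(FPKM + 0.1) and -0.0102 on log2(FPKM + 1), and ACTN4 had -0.06, -0.0808 and -0.0803 in the last 3 of these. The count of members called lower was 1 with upper quartile scaling and 0 in the other 3, and 1 member, VIL1, was at least 2-fold higher with library totals. All genes called split into 5993 higher and 5670 lower with TMM, 7195 and 4514 with upper quartile scaling, and 7970 and 3829 with library totals. Genes called at least 2-fold higher numbered 285 on log2(FPKM + 1), and those at least 2-fold lower 510 with library totals, 395 on log2(FPKM + 0.1) and 186 on log2(FPKM + 1). Paralogs called higher numbered 4 with upper quartile scaling and on both FPKM scales and 5 with library totals, and those called lower ranged from 2 to 5 when 1 library was left out (5 without siFSCN1 replicate 1). Partners of alpha-actinin and filamin called higher numbered 9 in these 4 alternatives, and those called lower 5 with library totals and on both FPKM scales, where filopodium and microvillus proteins called lower numbered 3. The summed FPKM difference of the members was -0.378 after TMM rescaling, 14.5 without FLNA and 59.2 per MANE Select length, and 40.5 to 46.3 when 1 library was left out. FSCN1 differed by -56.57 FPKM per MANE Select length, close in size to the members' gain on that length. Per MANE Select length, 2 pairs of genes in NC and 1 pair in siFSCN1 changed order. For the named genes of the lists, 363 of 375 refits kept direction and call. The other 12 were DIAPH3 in 3 and EPS8L3 in 9. The cause of these changes was not tested beyond the construction of the scalings. With the replicate block, PLS3 had a log2 fold change of 0.41, 5979 genes were higher and 5675 lower, and no call of a member changed. What same-numbered libraries share beyond the number is not stated. Depth limited LCP1, at 27 to 60 counts, and ESPN, at 3 to 10.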
